A study of Mus musculus with 4 samples.

Results

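The genes described here are 38 mouse genes of oxidative stress defense, most of them targets of the transcription factor NRF2, which is encoded by Nfe2l2. They were taken by name and cover the regulators of NRF2, enzymes that make and use glutathione, the thioredoxin and peroxiredoxin systems, peroxidases, superoxide dismutases, ferritin and enzymes that supply NADPH. All 38 symbols were matched among the 17630 genes listed for each library. A mean of at least 1 FPKM (fragments per kilobase of transcript, scaled to the fragments sequenced) over the 2 libraries compared was required, which all 38 genes met in sorted cells and in the comparison of both controls, and which 37 met in colonies treated with adrenergic agonists, where Sod3 was left out.

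The study asked how sympathetic nerves act on the mammary gland and its stem cells. Mammary basal cells, the outer layer of the duct that holds contractile myoepithelial cells and stem cells, were obtained from wild type mice by flow sorting. One group came from mice given 6-OHDA (6-hydroxydopamine), a toxin taken up by sympathetic nerve endings, and its control from mice without it. The other groups were colonies that basal cells formed in 3D Matrigel culture, in a medium with epidermal growth factor and a supplement of insulin, transferrin and selenium. One of these was grown with SP, the joint addition of salbutamol, an agonist of the β2 adrenoceptor, and phenylephrine, an agonist of α1 adrenoceptors, and the other without, so that the effects of both agonists cannot be told apart. The control colonies were assigned by their title, with the treatment labeled as none. Strain, age, sex, a dose with its unit and the number of mice behind each library are given neither in the labels nor in the series text. The titles of the control and SP colonies carry a number without a unit.

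Each group had 1 library, so there were no replicates, no difference could be set against a spread between mice or cultures, and no test was made. Differences are given on the scale of log2(FPKM + 1), which understates the change of genes with low values. Genes were counted as higher or lower when this difference was over 0.3 in size, the fold change threshold used in the study. For its calls in basal cells the study also set a cutoff on an adjusted p-value. No such cutoff was applied here, so the counts are not comparable with those of the study. The FPKM values summed to 508071 in control sorted cells, 517504 in 6-OHDA sorted cells, 577631 in control colonies and 588202 in SP colonies. From the steps between low values, 1 FPKM on 1 kilobase stood for roughly 15.6 to 18.8 fragments in each of the 4 libraries, a rough estimate from which no interval is given.

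Under resting conditions KEAP1 holds NRF2 in the cytoplasm and passes it to a ubiquitin ligase for degradation. Oxidants and electrophiles modify cysteines of KEAP1, NRF2 then accumulates, pairs with small MAF proteins and binds antioxidant response elements (AREs) near its target genes, while BACH1 competes for the same elements. The targets detoxify quinones, peroxides and electrophiles, recycle glutathione and thioredoxin with NADPH, and store or release iron. NRF2 is controlled largely at the protein level, which RNA-seq does not measure.

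The basal label was checked against marker genes. Krt14, a keratin of basal cells, was the most abundant of 12 basal and myoepithelial markers in each library, at 3595 FPKM in control and 2633 FPKM in 6-OHDA sorted cells, and 3298 FPKM in control and 6919.9 FPKM in SP colonies. Krt5, its usual partner, was found at 1002 FPKM in control and 869 FPKM in 6-OHDA sorted cells, and 1888 FPKM in control and 4579 FPKM in SP colonies. The contractile gene Myh11 was far lower in colonies than in sorted cells, with 467 FPKM in control sorted cells and 11.2 FPKM in control colonies. Among 12 luminal markers, Krt8 was the most abundant in each library. It stood at 560 FPKM in control and 545 FPKM in 6-OHDA sorted cells, and 698 FPKM in control and 683 FPKM in SP colonies. Elf5, a transcription factor of luminal progenitors, was listed at 0.63 FPKM in control sorted cells and 22.5 FPKM in control colonies. Markers of both layers were thus present in the sorted cells as well as in the colonies. Contractile transcripts such as Myh11 were at a lower level in colonies. With bulk RNA, fewer cells of a type and less RNA per cell cannot be told apart.

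The 38 genes made up a similar share of each library. Their FPKM values summed to 6808, or 1.34% of the library, in control sorted cells, to 6724 (1.3%) in 6-OHDA sorted cells, to 7862 (1.36%) in control colonies and to 7072 (1.20%) in SP colonies. Fth1, the ferritin heavy chain, was the most abundant of them in all 4 libraries. The composition of this sum was what differed, most between sorted cells and colonies.

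**Figure D1:**
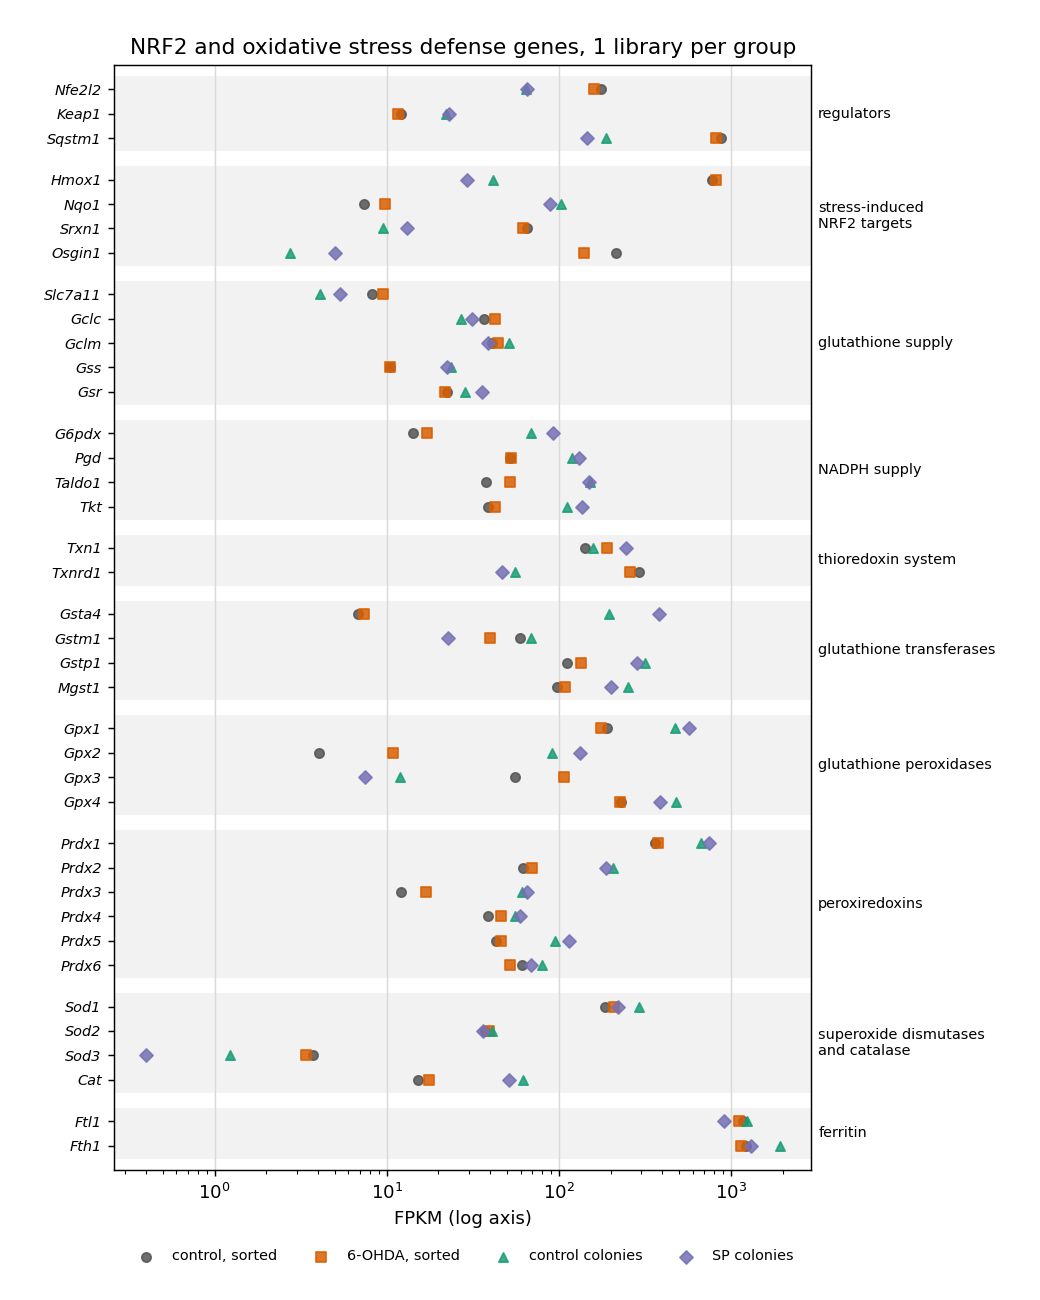
FPKM of the 38 NRF2 and oxidative stress defense genes on a log axis, grouped by role, with 1 symbol for each of the 4 libraries. Hmox1, Osgin1 and Txnrd1 lie far to the right in the sorted libraries, and Nqo1, Gsta4 and Gpx2 in the colony libraries; Sod3 in SP colonies, at 0.40 FPKM, is the lowest point.

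In control colonies, set against control sorted cells, the defense genes differed in both directions, for several roles within the same role. Hmox1, Osgin1, Srxn1, Txnrd1, Sqstm1 and Nfe2l2 itself were lower in colonies, whereas Nqo1, Gsta4, Gpx2, the enzymes of NADPH supply and most peroxiredoxins were higher. Of the 38 genes, 24 were higher by more than 0.3, or 63.2%, where 55.7% of the 12244 genes compared were higher by as much. Another 10 genes, or 26.3%, were lower, where 26.6% of all genes were. Both shares were near those of all genes. Past a log2 difference of 1, 16 of them (42.1%) were higher beside 30.7% of all genes, and 8 (21.1%) were lower beside 13.2%. The median difference was 0.65 for the defense genes and 0.45 for all genes.

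The scale of the 2 libraries bears on these counts. Scaling by the median ratio moved the median of all genes from 0.45 to -0.02, and with it the share of higher genes among all genes past the threshold from 67.7% to 49.5%, and among the defense genes past it from 70.6% to 58.1%. With quantile normalization the share among all genes was 54.3%. Relative to the median of all genes, 18 defense genes were higher by more than 0.3 and 13 were lower, with 39.7% of all genes on the higher side and 39.7% on the lower. Differences between the controls are therefore also given below relative to that median.

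In sorted cells of 6-OHDA mice, most defense genes lay close to their control values. Gpx2, Gpx3, Prdx3, Taldo1, Txn1 and Nqo1 were higher by more than 0.3, and Osgin1 and Gstm1 were lower. These 6 higher genes were 15.8% of the 38, the same as the 15.8% of 11749 genes higher in the whole comparison, and the 2 lower genes were 5.26%, beside 8.35% of all genes. The other 30 genes, among them Nfe2l2, Keap1 and Hmox1, differed by 0.3 or less. The median difference was 0.09 for the defense genes and 0.06 for all genes. These counts give no sign that the defense genes as a group differed from the rest of the genes in the 6-OHDA library. Genes higher made up 65.4% of all genes past the threshold, which became 50.4% with median ratio scaling (6 defense genes higher and 3 lower) and 47.3% with quantile normalization.

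SP colonies differed from control colonies in 18 of the 37 genes compared. Gsta4, Osgin1, Txn1, Gpx2, G6pdx, Srxn1, Slc7a11 and Gsr were higher, and Gstm1, Gpx3, Fth1, Hmox1, Ftl1, Sod1, Gclm, Sqstm1, Mgst1 and Gpx4 were lower. The 8 higher genes were 21.6% of the 37, where 11.7% of 11849 genes were higher, and the 10 lower genes were 27.0%, where 19.8% of all genes were lower. The median difference was -0.03 for the defense genes and -0.07 for all genes. With median ratio scaling 11 defense genes were higher and 7 lower, so that higher genes were 61.1% of those past the threshold in place of 44.4%, and among all genes 49.8% in place of 37.1%, or 47.2% with quantile normalization. Only Gstm1 differed by more than 1 on the log2 scale.

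**Figure D2:**
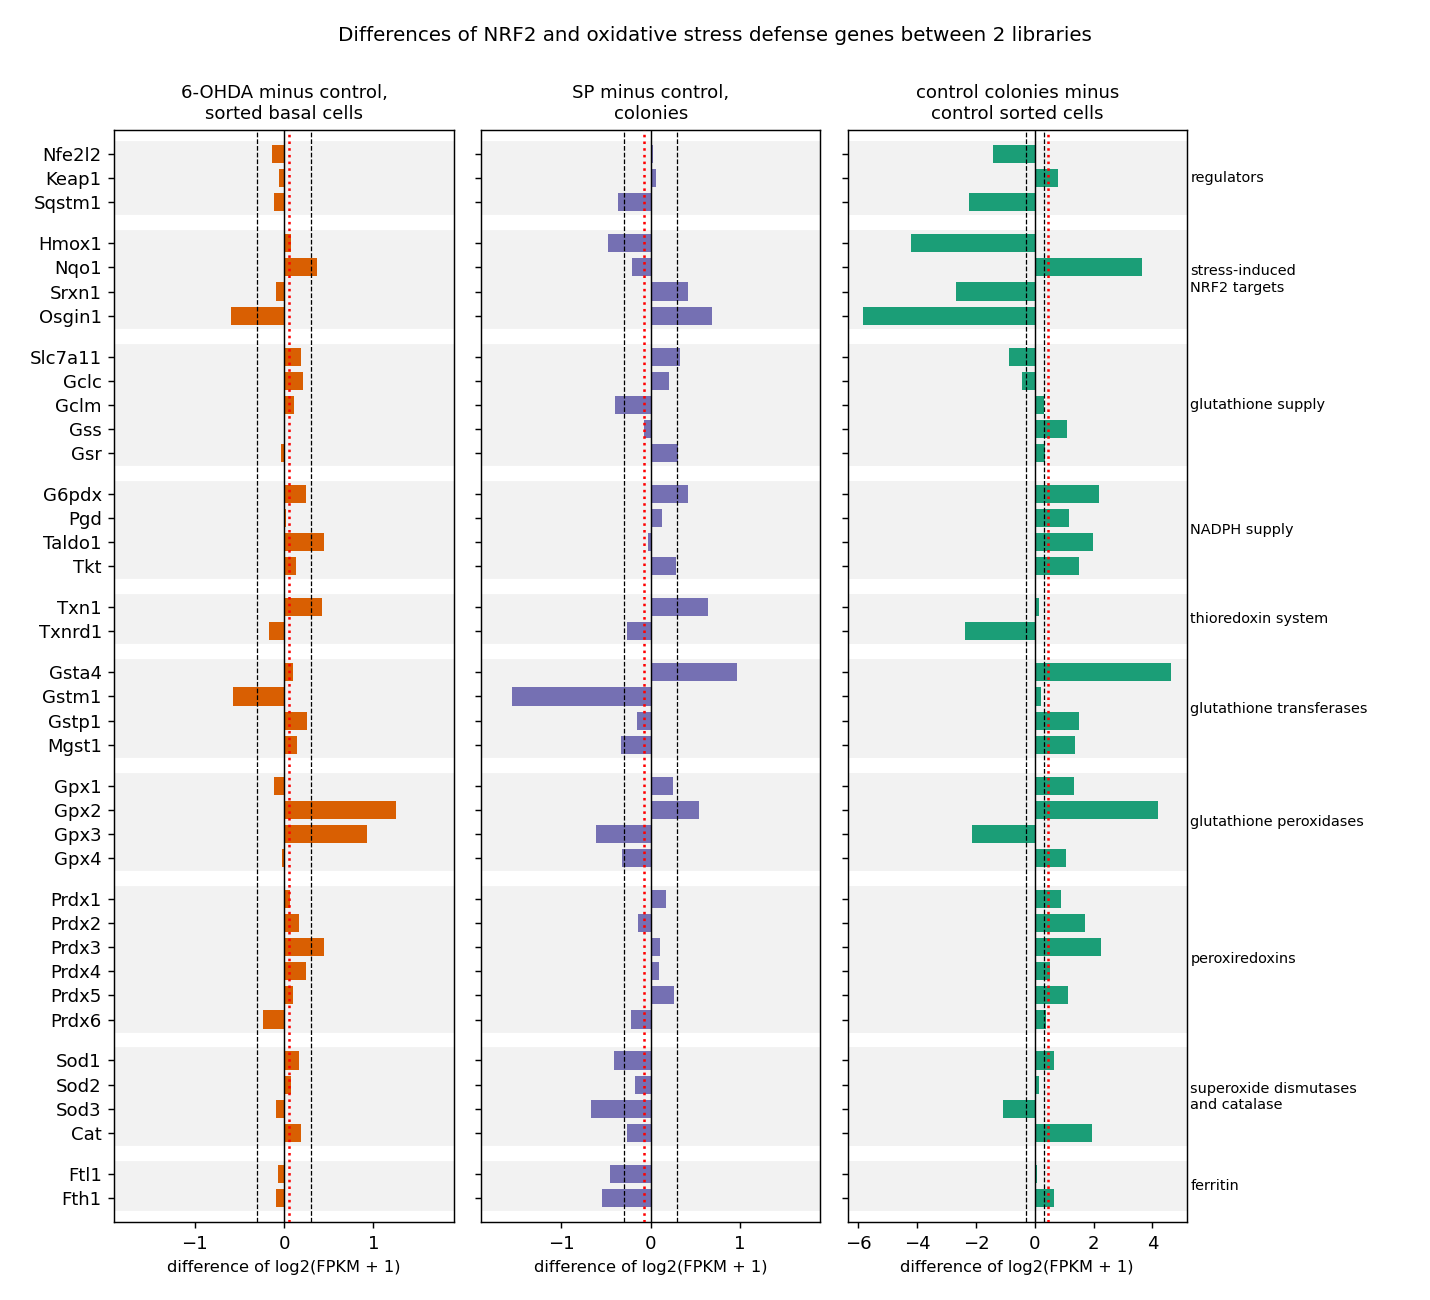
Difference of log2(FPKM + 1) for each of the 38 genes in the 3 comparisons, with dashed lines at 0.3 in size and a red dotted line at the median of all genes compared (0.06, -0.07 and 0.45); the axis of the right panel is wider. Bars run from -0.60 to 1.25 in sorted cells, from -1.55 to 0.97 in colonies and from -5.84 to 4.65 between the controls; Sod3 in the middle panel did not meet the filter, and Gclm, Gsr and Prdx6 in the right panel lie below 0 with median ratio scaling.

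The 6-OHDA and SP comparisons have no library in common. Of the 38 genes, Txn1 and Gpx2 were higher in both, Gstm1 was lower in both, Gpx3 was higher with 6-OHDA and lower with SP, and Osgin1 was lower with 6-OHDA and higher with SP. Another 16 genes were within 0.3 in both. Of the 37 genes past both filters, these were 5.41% (2.83% of the 10799 genes past both), 2.70% (1.83%), 2.70% (2.59%), 2.70% (1.08%) and 43.2% (56.5%), and the combinations of 1 or 2 genes are too few to set apart from all genes. The comparison of the controls shares the sorted control with the 6-OHDA comparison and the colony control with the SP comparison, so a value that is high or low in a control enters 2 comparisons with opposite or equal sign, and no agreement between them is counted.

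Of the 3 regulators, Nfe2l2 stood at 176 FPKM in control and 161 FPKM in 6-OHDA sorted cells, and 64.4 FPKM in control and 65.6 FPKM in SP colonies. Both sorted libraries were above both colony libraries, with a difference between the controls of -1.43, or -1.89 relative to the median of all genes. Keap1, the adaptor that targets NRF2 for degradation, was found at 12.2 FPKM in the sorted control, 11.6 with 6-OHDA, 22.0 in control colonies and 23.0 with SP. It was higher in control colonies by 0.80, or 0.35 relative to all genes. The FPKM of Nfe2l2 was 14.4 times that of Keap1 in control and 13.8 times in 6-OHDA sorted cells, and 2.93 times in control and 2.86 times in SP colonies. Sqstm1 encodes p62, an autophagy receptor that binds KEAP1 and is itself an NRF2 target. Its values were 881 FPKM in control and 816 FPKM in 6-OHDA sorted cells, and 188 FPKM in control and 145 FPKM in SP colonies. It was lower in control colonies, at -2.22, and lower again with SP, at -0.37; with median ratio scaling the SP difference was within 0.3. Neither treatment moved Nfe2l2 or Keap1 past the threshold.

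The stress-induced targets included the widest difference between the controls, that of Osgin1. Hmox1 (NCBI Gene 15368, chr8:75093618-75100593), the inducible heme oxygenase, which breaks heme down to biliverdin, carbon monoxide and iron, was listed at 777 FPKM in control and 823 FPKM in 6-OHDA sorted cells, and 41.2 FPKM in control and 29.3 FPKM in SP colonies. It ranked at 114 of 17630 genes by FPKM in control sorted cells and at 2210 in control colonies, 18.9 times lower in FPKM, with a log2 difference of -4.20 (-4.66 relative to all genes). In SP colonies it was lower than in control colonies, at -0.48, and in 6-OHDA sorted cells it differed by 0.08. Osgin1 (chr8:119425882-119446257), an oxidative stress induced growth inhibitor, was found at 214 FPKM in control and 141 FPKM in 6-OHDA sorted cells, and 2.75 FPKM in control and 5.03 FPKM in SP colonies. Its sorted values were far above those in colonies, and it had the most negative difference of the 38 genes between the controls, -5.84 (-6.29 relative to all genes). It was lower with 6-OHDA, at -0.60, and higher with SP by 0.69, the latter on roughly 86 and 160 fragments and at 0.37 with a pseudocount of 5.

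Srxn1, sulfiredoxin, which restores overoxidized peroxiredoxins, was measured at 65.7 FPKM in the sorted control, 61.6 with 6-OHDA, 9.56 in control colonies and 13.1 with SP. It was lower in control colonies, at -2.66 (-3.11 relative to all genes) and, within colonies, higher with SP by 0.42. Nqo1 (NCBI Gene 18104, chr8:107388225-107403205), a quinone reductase often used as a readout of NRF2, went the other way, with 7.35 FPKM in control and 9.80 FPKM in 6-OHDA sorted cells, and 103 FPKM in control and 88.8 FPKM in SP colonies. Both colony libraries were well above both sorted libraries, 14.0 times for the controls, a difference of 3.64 (3.19 relative to all genes). It was higher with 6-OHDA by 0.37, which came to within 0.3 with a pseudocount of 5 and with quantile normalization. The FPKM of Hmox1 was 106 times that of Nqo1 in control sorted cells and 0.399 times in control colonies. Hmox1 and Nqo1, both textbook NRF2 targets, thus stood in opposite order in sorted cells and in colonies.

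Glutathione supply begins with cystine. Slc7a11, the cystine importer, was low in all 4 libraries, at 8.22 FPKM in the sorted control, 9.54 with 6-OHDA, 4.09 in control colonies and 5.39 with SP. It was lower in control colonies, at -0.86 (-1.31 relative to all genes) and higher with SP by 0.33, within 0.3 with a pseudocount of 5. Gclc, the catalytic subunit of the enzyme that joins glutamate and cysteine, was found at 36.7 FPKM in the sorted control, 42.5 with 6-OHDA, 27.2 in control colonies and 31.5 with SP. It was lower in control colonies, at -0.42, and was within 0.3 in both treatments. Gclm, the modifier subunit, was found at 41.1 FPKM in the sorted control, 44.6 with 6-OHDA, 51.4 in control colonies and 38.7 with SP. It was lower with SP, at -0.40, and the SP value lay closest to that of the sorted control. The FPKM of Gclm was 1.89 times that of Gclc in control colonies and 1.23 times in SP colonies. Gss, which completes glutathione, was found at 10.5 FPKM in the sorted control, 10.5 with 6-OHDA, 23.7 in control colonies and 22.3 with SP, higher in control colonies by 1.11 (0.65 relative to all genes). Gsr, which reduces oxidized glutathione with NADPH, was found at 22.4 FPKM in the sorted control, 21.8 with 6-OHDA, 28.6 in control colonies and 35.6 with SP. It passed the threshold with SP, at 0.31, but not with a pseudocount of 5 or with the libraries rescaled to the same sum. Between the controls, Gclm (0.32) and Gsr (0.34) were higher in colonies as deposited and lower, at -0.18 and -0.15, with median ratio scaling.

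All 4 enzymes of NADPH supply were higher in control colonies than in control sorted cells, under each of the scalings run. Of all genes 55.7% were higher in this comparison as deposited. The summed FPKM of the 4 enzymes was 143 in control sorted cells, 164 in 6-OHDA sorted cells, 452 in control colonies and 509 in SP colonies. G6pdx, the entry enzyme of the pentose phosphate pathway, was found at 14.3 FPKM in control and 17.2 FPKM in 6-OHDA sorted cells, and 69.1 FPKM in control and 92.9 FPKM in SP colonies. Its difference between the controls was 2.20 (1.74 relative to all genes), and with SP it was higher again, by 0.42. Pgd, the next NADPH-forming enzyme of that pathway, was found at 51.8 FPKM in the sorted control, 52.5 with 6-OHDA, 119 in control colonies and 131 with SP, a difference between the controls of 1.18 (0.73 relative to all genes). Taldo1, transaldolase of the arm without oxidation, was found at 37.7 FPKM in the sorted control, 51.9 with 6-OHDA, 152 in control colonies and 149.6 with SP. It was the member of this group past the threshold with 6-OHDA, at 0.45, and was higher in control colonies by 1.99 (1.54 relative to all genes). Tkt, transketolase, was found at 38.9 FPKM in the sorted control, 42.6 with 6-OHDA, 112 in control colonies and 136 with SP, higher in control colonies by 1.50 (1.05 relative to all genes). With SP it differed by 0.28, which passed 0.3 with median ratio scaling only.

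The thioredoxin pair split. Txn1, thioredoxin, was found at 142 FPKM in control and 190.1 FPKM in 6-OHDA sorted cells, and 158 FPKM in control and 246 FPKM in SP colonies. It was higher with 6-OHDA by 0.42 and with SP by 0.64, while the controls differed by 0.15 (-0.30 relative to all genes); with median ratio scaling it was lower in control colonies, at -0.35. Txnrd1 (chr10:82833951-82897724), the selenoprotein that reduces thioredoxin with NADPH and an NRF2 target, was found at 293 FPKM in control and 261 FPKM in 6-OHDA sorted cells, and 55.9 FPKM in control and 46.7 FPKM in SP colonies. Both sorted libraries were above both colony libraries, 5.25 times for the controls, a difference of -2.37 (-2.82 relative to all genes), and both treatments stayed within 0.3.

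The glutathione transferases held the gene with the largest positive difference between the controls and the gene with the most negative difference with SP among the 38. Gsta4 (NCBI Gene 14860, chr9:78191966-78209349), which conjugates lipid aldehydes to glutathione, was listed at 6.84 FPKM in control and 7.41 FPKM in 6-OHDA sorted cells, and 196 FPKM in control and 384 FPKM in SP colonies. It was 28.6 times higher in control colonies than in control sorted cells, a difference of 4.65 (4.20 relative to all genes), and 1.96 times higher again with SP, a difference of 0.97; the sorted values rest on roughly 87 and 90 fragments. Gstm1 (NCBI Gene 14862, chr3:108012250-108017973), of the mu class, was listed at 59.4 FPKM in control and 39.6 FPKM in 6-OHDA sorted cells, and 68.6 FPKM in control and 22.8 FPKM in SP colonies. It was lower with 6-OHDA, at -0.57, and lower with SP, at -1.55, 3.01 times in FPKM, whereas both controls had similar values. Gstp1, of the pi class, was found at 112 FPKM in the sorted control, 135 with 6-OHDA, 318 in control colonies and 286 with SP, and Mgst1, a transferase of microsomal membranes, at 97.9 FPKM in the sorted control, 109 with 6-OHDA, 254 in control colonies and 202 with SP. Both were higher in control colonies, by 1.49 and 1.37 (1.04 and 0.91 relative to all genes), and Mgst1 was lower with SP, at -0.33, within 0.3 with median ratio scaling. Transferases, ferritins, peroxiredoxins, thioredoxin and peroxidases have near-identical paralogs or processed pseudogenes, so their values are uncertain to the extent that fragments were divided among copies.

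The 4 glutathione peroxidases differed in opposite directions. Gpx2 (NCBI Gene 14776, chr12:76792335-76795554), the peroxidase of epithelial linings, was listed at 4.04 FPKM in control and 10.95 FPKM in 6-OHDA sorted cells, and 90.8 FPKM in control and 133 FPKM in SP colonies. It was higher by 1.25 with 6-OHDA, by 0.54 with SP and by 4.19 in control colonies (3.73 relative to all genes). The 6-OHDA difference was the largest of the 38 genes there and rests on roughly 58 and 150 fragments; with a pseudocount of 5 it was 0.82, below the 0.89 of Gpx3. Gpx3 (chr11:54902854-54910387), the secreted peroxidase of plasma and extracellular space, was listed at 56.0 FPKM in control and 108 FPKM in 6-OHDA sorted cells, and 12.0 FPKM in control and 7.47 FPKM in SP colonies. It was higher with 6-OHDA by 0.93, lower with SP, at -0.61, and lower in control colonies, at -2.14 (-2.59 relative to all genes). Gpx1, the abundant cytosolic form, was found at 191 FPKM in the sorted control, 176 with 6-OHDA, 476 in control colonies and 568 with SP, and Gpx4, which reduces lipid peroxides in membranes, at 231 FPKM in the sorted control, 228 with 6-OHDA, 483 in control colonies and 386 with SP. Both were higher in control colonies, by 1.32 and 1.06 (0.86 and 0.61 relative to all genes). Gpx4 was lower with SP, at -0.32, within 0.3 with median ratio scaling, and Gpx1 differed by 0.25, past 0.3 with that scaling.

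Markers of stromal cells moved beside Gpx3. With 6-OHDA, 5 of 8 fibroblast markers were higher and 0 lower, beside 15.8% and 8.35% of all genes. Named after their values were seen, the higher ones were Col3a1 (2.26), Col1a1 (1.91), Col1a2 (1.68), Lum (1.5) and Dpt (0.45). Dcn (0.22), Pdgfra (0.28) and Pdgfrb (0.01) stayed within 0.3. With SP, 5 of the 6 fibroblast markers that met the filter were lower and 0 higher, beside 19.8% and 11.7% of all genes. In control colonies 6 were lower and 1 was higher than in control sorted cells, beside 26.6% and 55.7% of all genes. The summed FPKM of the 8 markers was 190.1 in control sorted cells, 386 in 6-OHDA sorted cells, 41.6 in control colonies and 13.3 in SP colonies. Dcn was the most abundant of them in sorted cells, at 115 FPKM in control and 135 FPKM in 6-OHDA cells, Col1a2 in control colonies (20.6 FPKM) and Pdgfra in SP colonies (5.32 FPKM). Dpt was listed at 0 in SP colonies. Of 6 adipocyte markers only Fabp4, which capillaries also express, met the filter, at 210.2 FPKM in control and 374 FPKM in 6-OHDA sorted cells, and 34.4 FPKM in control and 1.05 FPKM in SP colonies, while Cidec was listed at 0 in 6-OHDA sorted cells, Retn in control colonies and Plin1, Cidec and Retn in SP colonies; the 6 summed to 212 and 375 FPKM in control and 6-OHDA sorted cells and to 37.95 and 1.13 FPKM in control and SP colonies. These sums are almost all Fabp4; Adipoq, Plin1 and Cidec, all below 2 FPKM, were listed higher in control colonies than in control sorted cells. The part of these cells in the Gpx3 values was not tested.

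A salivary gland signal was present in the 6-OHDA library. The summed FPKM of 11 salivary gland genes was 5.33 in control sorted cells and 16098 in 6-OHDA sorted cells, 3.11% of that library, against 52.6 in control and 41.6 in SP colonies. Bpifa2, the most abundant, was listed at 7277 FPKM there and at 0 in control sorted cells, as were Smr3a, Dcpp1, Dcpp2, BC037156, Prb1 and Pip, while Aqp5 was the most abundant in the other 3 libraries. Rescaling both libraries to the same sum without these genes left the same counts of 6 defense genes higher and 2 lower. Whether salivary cells or RNA contributed defense gene transcripts to the 6-OHDA library was not tested.

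The 6 peroxiredoxins reduce peroxides through a reactive cysteine. All 6 were higher in control colonies than in control sorted cells as deposited, with a median of 1.01. Of all genes 55.7% were higher, with a median of 0.45. With median ratio scaling 4 of the 6 were higher by more than 0.3, with a median of 0.5, and Prdx6 was lower, at -0.12. Prdx1, the most abundant of them and a cytosolic enzyme, was found at 361 FPKM in control and 379 FPKM in 6-OHDA sorted cells, and 669 FPKM in control and 750.3 FPKM in SP colonies. Prdx2, also cytosolic, was found at 62.4 FPKM in the sorted control, 70.2 with 6-OHDA, 208 in control colonies and 188 with SP, and Prdx3, of mitochondria, at 12.1 FPKM in the sorted control, 16.9 with 6-OHDA, 60.8 in control colonies and 65.4 with SP. Prdx3 had the widest difference of the family between the controls, 2.24 (1.79 relative to all genes), with 1.72 (1.27) for Prdx2 and 0.89 (0.44) for Prdx1. With 6-OHDA, Prdx3 was higher by 0.45, the one peroxiredoxin past the threshold as deposited; with median ratio scaling Prdx6, at -0.24 as deposited, passed it as lower. Prdx4, of the endoplasmic reticulum, was found at 39.0 FPKM in the sorted control, 46.2 with 6-OHDA, 56.1 in control colonies and 59.8 with SP, and Prdx5, of several compartments, at 43.3 FPKM in the sorted control, 46.5 with 6-OHDA, 95.4 in control colonies and 115 with SP. Prdx6, which also acts on phospholipids, was found at 61.4 FPKM in the sorted control, 51.8 with 6-OHDA, 80.3 in control colonies and 68.9 with SP. Differences between the controls were 0.51, 1.12 and 0.38 for these 3 genes (0.06, 0.67 and -0.07 relative to all genes). None of the 6 passed the threshold with SP as deposited; Prdx5, at 0.26, passed it with median ratio scaling.

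Superoxide dismutases turn superoxide into hydrogen peroxide, which catalase breaks down in peroxisomes. Sod1, the cytosolic copper and zinc enzyme, was found at 187 FPKM in the sorted control, 210.3 with 6-OHDA, 293 in control colonies and 221 with SP. It was higher in control colonies by 0.65 (0.20 relative to all genes) and lower with SP, at -0.41. Sod2, the manganese enzyme of mitochondria, was found at 37.1 FPKM in the sorted control, 39.3 with 6-OHDA, 41.1 in control colonies and 36.3 with SP. The controls differed by 0.15 (-0.31 relative to all genes), and with median ratio scaling Sod2 was lower in control colonies, at -0.35. Sod3, the extracellular enzyme, was the least abundant of the 38 genes, at 3.72 FPKM in the sorted control, 3.42 with 6-OHDA, 1.23 in control colonies and 0.40 with SP, the last on roughly 25 fragments. It was lower in control colonies, at -1.08 (-1.53 relative to all genes). Cat, catalase, was found at 15.2 FPKM in the sorted control, 17.5 with 6-OHDA, 62.2 in control colonies and 51.7 with SP, higher in control colonies by 1.96 (1.51 relative to all genes) and within 0.3 in both treatments.

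Ferritin stores iron that would otherwise react with peroxides. Fth1, the heavy chain, which oxidizes iron, was listed at 1219.7 FPKM in control and 1143 FPKM in 6-OHDA sorted cells, and 1918 FPKM in control and 1311 FPKM in SP colonies, and ranked at 68 in control sorted cells and 43 in control colonies. The light chain gene Ftl1 was listed at 1179.5 FPKM in control and 1119.8 FPKM in 6-OHDA sorted cells, and 1248 FPKM in control and 909 FPKM in SP colonies. With SP both were lower, Fth1 at -0.55 and Ftl1 at -0.46, and the direction was the same under each scaling run. Between the controls Fth1 was higher in colonies by 0.65 (0.20 relative to all genes), and Ftl1 differed by 0.08 (-0.37), negative with the same-sum and quantile scalings and past the threshold as lower, at -0.43, with median ratio scaling. Hmox1, which frees iron, and both ferritin chains were thus lower together in SP colonies.

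**Figure D3:**
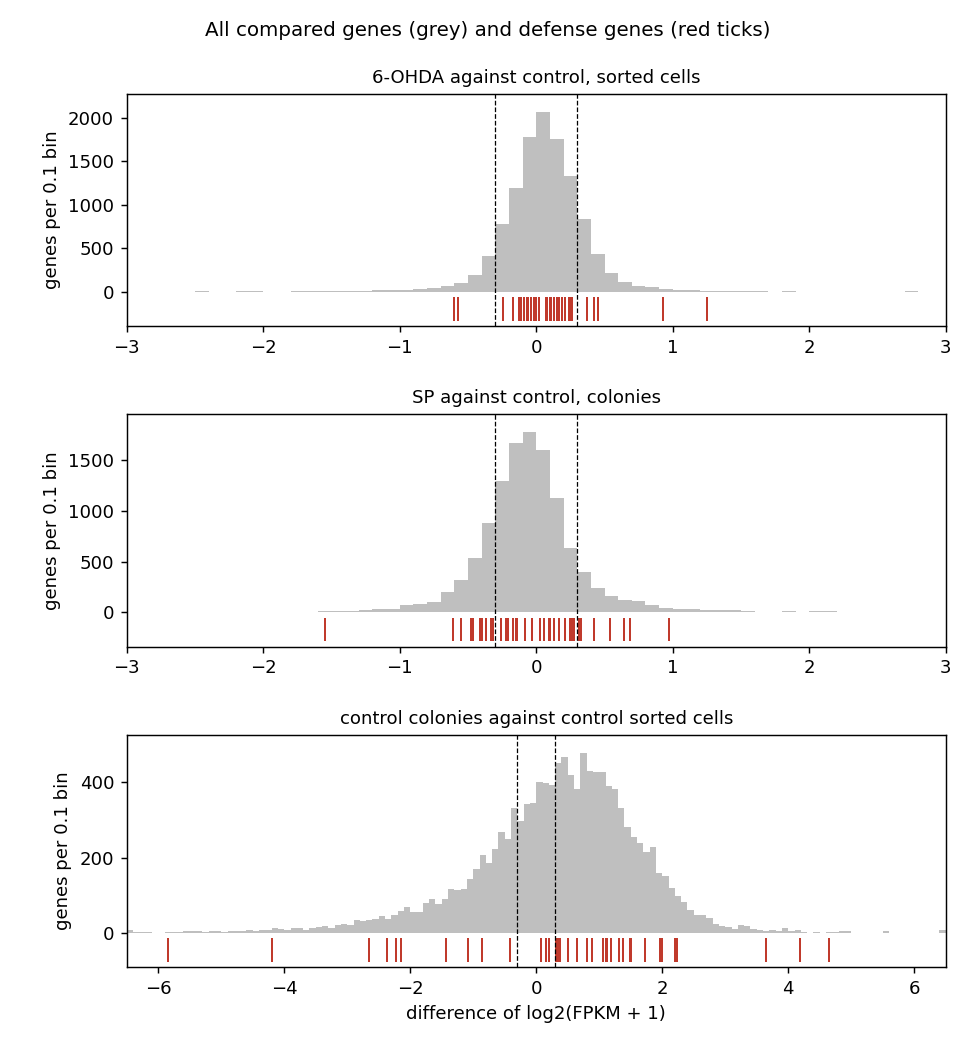
Number of genes in each bin of the difference of log2(FPKM + 1), 0.1 wide, for all genes compared (grey), with the NRF2 and oxidative stress defense genes as red ticks and dashed lines at 0.3 in size; genes outside an axis are not drawn, or stand in the end bins of the lowest panel. Most of the defense genes lie near the middle of all genes in sorted cells and in colonies, and in the lowest panel they reach from -5.84 to 4.65.

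Among 16 genes of NRF2 partners and NRF2 turnover, the small MAF genes Maff and Mafk, whose proteins pair with NRF2, were lower in colonies. Maff was listed at 248 FPKM in control and 205 FPKM in 6-OHDA sorted cells, and 4.03 FPKM in control and 8.36 FPKM in SP colonies, a difference between the controls of -5.63 (-6.08 relative to all genes), and was higher with SP by 0.90. Mafk was listed at 165 FPKM in the sorted control, 139 with 6-OHDA, 29.7 in control colonies and 22.8 with SP, lower in control colonies, at -2.43, and lower with SP, at -0.36. Nfe2l3, a relative of Nfe2l2, and Dpp3, which binds KEAP1, were higher in control colonies by 2.77 and 2.34. Of the 14 genes that met the filter between the controls, 6 (42.9%) were higher and 7 lower, beside 55.7% and 26.6% of all genes, with a median of -0.28 beside 0.45; with median ratio scaling 4 were higher and 8 lower. With 6-OHDA only Gsk3b of 13 genes passed the threshold, at 0.35 (7.69% higher, beside 15.8% of all genes). Of these 13 genes 0 were lower, beside 8.35% of all genes. None was higher with a pseudocount of 5, and with median ratio scaling 0 were higher and 2 (15.4%, beside 11.4%) lower. With SP, 2 of 15 (13.3%, beside 11.7% of all genes) were higher, Maff and Palb2 (0.43), and 3 (20.0%, beside 19.8%) lower, with Btrc lowest at -0.39 and Mafk next; 1 was lower with median ratio scaling or with a pseudocount of 5.

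Of 44 other NRF2 target enzymes and exporters, the 38 that met the filter between the controls had a median difference of 0.88, beside 0.45 for all genes, with 28 (73.7%) higher and 7 (18.4%) lower, beside 55.7% and 26.6% of all genes. With median ratio scaling 21 were higher and 10 lower, with a median of 0.41. Pir, an iron-binding nuclear protein, was listed at 1.93 FPKM in control sorted cells and 37.6 FPKM in control colonies, a difference of 3.72. Ptgr1, a reductase of prostaglandins and lipid aldehydes, was listed at 4.94 and 55.2 FPKM, a difference of 3.24. Gstt1 and Cbr3 were the lowest, at -2.22 and -1.68. With SP, 12 of 39 (30.8%) were higher and 9 (23.1%) lower, beside 11.7% and 19.8% of all genes, with a median of -0.04. Mgst2 stood at 2.31 FPKM in control and 9.16 FPKM in SP colonies, and Gsta1, listed at 0 in both sorted libraries, at 2.01 and 8.11 FPKM. Aox1, aldehyde oxidase, stood at 19.1 and 7.61 FPKM, and Gsta3 at 2.88 and 1.20 FPKM. With 6-OHDA, 9 of 36 were higher, beside 15.8% of all genes, led by Aldh3a1 (1.01) and Pir (0.63), and 2 (5.56%, beside 8.35%) were lower, Cbr1 (-0.58) and Gstt1 (-0.54), with a median of 0.10. With median ratio scaling 5 (13.9%) were higher and 4 (11.1%) lower, near the 11.6% and 11.4% of all genes under that scaling.

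Within the mu class, the low Gstm1 value in SP colonies was not shared by its paralogs to the same extent. Gstm2 stood at 12.0 FPKM in control and 18.0 FPKM in SP colonies, a difference of 0.54, Gstm4 at 7.70 and 8.53 FPKM (0.13), and Gstm5 at 54.9 and 40.2 FPKM (-0.44). These genes were named after their values were seen, to show the copies of Gstm1 beside it.

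All 41 other thioredoxin, glutathione and NADPH genes met the filter in the 3 comparisons. Between the controls 29 (70.7%) were higher and 9 (22.0%) lower, beside 55.7% and 26.6% of all genes, with a median of 0.79 beside 0.45; with median ratio scaling 23 were higher and 11 lower, with a median of 0.34. Idh1, the cytosolic isocitrate dehydrogenase that forms NADPH, was listed at 6.61 FPKM in control and 8.72 FPKM in 6-OHDA sorted cells, and 117 FPKM in control and 137 FPKM in SP colonies, a difference of 3.96 between the controls (3.50 relative to all genes). Msrb2, a methionine sulfoxide reductase of mitochondria, was higher by 2.50. Ggt1, which starts the breakdown of extracellular glutathione, and Txnrd3 were lowest, at -2.69 and -1.60. The most abundant gene of the list was Mt2, a metallothionein, at 1762 FPKM in control and 1923 FPKM in 6-OHDA sorted cells, and 746 FPKM in control and 1029.6 FPKM in SP colonies. With 6-OHDA 11 genes (26.8%, beside 15.8% of all genes) were higher and 1 (2.44%, beside 8.35%) lower, with a median of 0.17. With a pseudocount of 5, 6 (14.6%, beside 6.84%) were higher and 0 lower (beside 4.59%). Rpe (0.80) and Gpx7 (0.66) led, and Ggt5 (-0.42) was the lower one. With SP 6 (14.6%) were higher and 7 (17.1%) lower, near the 11.7% and 19.8% of all genes, with a median of 0.05. Txnip, the inhibitor of thioredoxin, was listed at 62.0 FPKM in control and 84.0 FPKM in 6-OHDA sorted cells, and 198 FPKM in control and 89.5 FPKM in SP colonies. It was lower with SP, at -1.13, beside a higher Txn1, and Msrb2 was next at -0.65, while Chac2 (0.50) and Ggct (0.50) were the highest.

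Immediate-early genes and markers of other cell types differed between sorted cells and colonies as well. Of 12 immediate-early and heat shock genes, a list added after the data were seen, 11 (91.7%, beside 26.6% of all genes) were lower in control colonies. The other 1 (8.33%, beside 55.7%) was higher as deposited but not under the other scalings. The summed FPKM of the 12 was 4906 in control and 4043 in 6-OHDA sorted cells, 1951 in control colonies and 1359 in SP colonies. Fos was the most abundant in sorted cells, at 809 FPKM in control and 666 FPKM in 6-OHDA cells, Junb in control colonies, at 359 FPKM, and Jun in SP colonies, at 264 FPKM. None was listed at 0. With 6-OHDA 6 of the 12 were lower and 0 higher, beside 8.35% and 15.8% of all genes. With SP 8 were lower and 0 higher, beside 19.8% and 11.7% of all genes. The part of these genes' response in the values of Hmox1, Osgin1, Srxn1, Txnrd1 and Maff was not tested.

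The sort was meant to leave out cells with CD31, CD45 or TER119, markers of endothelial, white and red blood cells. Transcripts of all 5 endothelial markers were nevertheless found in both sorted libraries. All 5 were lower in control colonies than in control sorted cells, beside 26.6% of all genes. They had a summed FPKM of 221 in control and 206 in 6-OHDA sorted cells, and 1.70 in control and 1.80 in SP colonies. Pecam1, which encodes CD31, was the most abundant, at 107 FPKM in control sorted cells and 1.39 FPKM in control colonies. The 8 macrophage markers, of cells rich in heme oxygenase in many tissues, summed to 13.8 in control and 12.8 in 6-OHDA sorted cells, and 2.80 in control and 3.54 in SP colonies, with Cd68 the most abundant at 6.05 FPKM in control sorted cells. Adgre1, Csf1r, Mrc1, C1qa and C1qb were listed at 0 in control colonies, and Adgre1, C1qa and C1qb in SP colonies. The 5 leukocyte markers found summed to 4.10 and 3.04 FPKM in control and 6-OHDA sorted cells and to 0.60 and 1.19 FPKM in control and SP colonies, with Cd79a the most abundant, and Ptprc and Cd3e were listed at 0 in both colony libraries, Itgam in control colonies and Cd3e in 6-OHDA sorted cells. The 4 red blood cell markers found summed to 1.51 FPKM in control and 9.31 FPKM in 6-OHDA sorted cells, with Hba-a1 the most abundant there, and to 0.51 and 0.28 FPKM in control and SP colonies; Hba-a2 was listed at 0 in control sorted cells, and Hbb-bs, Hba-a1 and Hba-a2 in both colony libraries. The 5 Schwann cell markers summed to 81.6 and 95.1 FPKM in control and 6-OHDA sorted cells, and to 24.3 and 17.4 FPKM in control and SP colonies, with Sox10 the most abundant in sorted cells and Mbp in colonies.

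The epithelial markers themselves differed; of all genes 55.7% were higher and 26.6% lower in control colonies, and 11.7% higher and 19.8% lower with SP. Of the 12 basal and myoepithelial markers, 8 were lower and 1 was higher in control colonies, and with SP 7 were higher and 1 lower (9 and 0 with median ratio scaling), with summed FPKM of 11733, 10845, 7212 and 15167 in control sorted, 6-OHDA sorted, control colony and SP colony libraries. With 6-OHDA 1 (8.33%, beside 15.8% of all genes) was higher and 2 (16.7%, beside 8.35%) were lower. Of the 12 luminal markers, 9 were higher and 1 was lower in control colonies, and with SP 1 was higher and 5 were lower (2 and 3 with median ratio scaling), with summed FPKM of 1137, 1105, 2072 and 1932 in the same order. Of the 11 that met the filter with 6-OHDA, 3 (27.3%, beside 15.8%) were higher and 2 (18.2%, beside 8.35%) lower. The part of the cell makeup in the differences of the defense genes was not tested.

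Promoters of the defense genes were read for the letters that NRF2 and the related AP-1 factors are known to bind. Sequences were taken from the RefSeq promoter table of GRCm38.p6, 250 bases before to 50 after each start listed there, which can be an alternative start within the gene, and in which 32 of the 38 genes had 41 entries; Hmox1, Gclc, Gsr, Gsta4, Prdx6 and Sod3 had none. The core of the ARE, searched as TGACNNNGC on both strands, was in 9 of these 41 windows (22.0%) and in 12.4% of all 32851 windows. By gene, 9 of 32 (28.1%) held it, beside 14.0% of 27025 genes. They were Nfe2l2, Srxn1, Gclm, Prdx1, Pgd, Mgst1, Txnrd1, Sod1 and G6pdx. A match is a description of letters only and says nothing about binding.

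The matches that lie before a listed start are shown because genes with them differed in both directions between the controls. Each line gives the gene, its difference between the controls and the window on the strand of the gene, 5′ to 3′, with the ARE core in capitals, in either orientation.
Nfe2l2 (-1.43), chr2:75704880-75704913, minus strand, motif from 240 bases before the listed start: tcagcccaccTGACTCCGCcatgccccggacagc
Txnrd1 (-2.37), chr10:82859099-82859137, plus strand, motif from 92 bases before the listed start: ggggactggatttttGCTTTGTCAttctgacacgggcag
Gclm (0.32), chr3:122245408-122245446, plus strand, motif from 134 bases before the listed start: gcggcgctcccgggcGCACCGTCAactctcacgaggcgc
Prdx1 (0.89), chr4:116685451-116685489, plus strand, motif from 133 bases before the listed start: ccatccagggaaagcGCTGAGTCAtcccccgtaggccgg
Mgst1 (1.37), chr6:138140456-138140494, plus strand, motif from 56 bases before the listed start: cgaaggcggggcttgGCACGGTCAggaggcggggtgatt
Sod1 (0.65), chr16:90220691-90220729, plus strand, motif from 56 bases before the listed start: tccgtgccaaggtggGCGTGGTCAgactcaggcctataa
G6pdx (2.20), chrX:74428914-74428952, minus strand, motif from 57 bases before the listed start: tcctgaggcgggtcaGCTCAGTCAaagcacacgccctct
Of these 7 genes, Nfe2l2 and Txnrd1 were lower in control colonies and Prdx1, Mgst1, Sod1 and G6pdx were higher, while the direction of Gclm depended on the scaling. The start listed for Txnrd1 lies 25255 bases inside the gene as annotated at its widest, so this window is at an alternative start, and that of Gclm lies 70 bases inside. In Srxn1 and Pgd the match began 29 and 4 bases after the listed start, which in Pgd lies 623 bases inside the gene.

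The AP-1 site, searched as TGANTCA, which reads alike on both strands and can overlap the ARE core, was in 4 of the 41 windows (9.76%) and in 7.81% of all windows. The sites of Srxn1, Osgin1 and Gstp1 are shown because these genes, too, differed in both directions between the controls, with the AP-1 site in capitals.
Srxn1 (-2.66), chr2:152105407-152105443, plus strand, motif from 102 bases before the listed start: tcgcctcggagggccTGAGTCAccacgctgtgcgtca
Srxn1 (-2.66), chr2:152105464-152105500, plus strand, motif from 45 bases before the listed start: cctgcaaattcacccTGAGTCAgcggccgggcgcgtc
Osgin1 (-5.84), chr8:119437035-119437071, plus strand, motif from 97 bases before the listed start: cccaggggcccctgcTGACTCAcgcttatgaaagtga
Gstp1 (1.49), chr19:4037965-4038001, minus strand, motif from 74 bases before the listed start: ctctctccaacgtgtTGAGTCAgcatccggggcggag
The start listed for Osgin1 lies 11265 bases inside the gene, an alternative start. Prdx1 had 2 such sites, of which the one nearer the listed start lies within its ARE core.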

How the data were processed

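RNA-seq of 4 libraries, 1 per group, was analysed. The authors deposited FPKM values with 2 decimals, and the submitters' processing notes name Bowtie2, RSEM 1.3.1, DESeq2 1.4.5 and the build mm10, with no role for each. Gene numbers were matched to NCBI Gene identifiers in the RefSeq table of GRCm38.p6, in which 17512 of 17630 had a symbol; the others stayed in the comparisons unnamed. No count test was run, since FPKM values are not counts. FPKM values are scaled to the fragments of the whole library, so very abundant transcripts in 1 library lower the values of the rest.

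Differences of log2(FPKM + 1) were computed where the mean of the pair of libraries reached 1 FPKM, and counted past 0.3, without a test. The calls were tested on simulated data, which is no test of a difference between these libraries. All 38 genes were named, of each of 6 pathway lists up to 2 genes with the largest positive and 2 with the most negative difference per comparison among those past 0.3, and of each of 10 cell type lists the most abundant gene and genes listed at 0; a few others are marked as chosen after their values were seen, and basal and luminal markers beyond the rule were named to describe the cells. Some genes that this rule covers are not reported here. The genes and lists were chosen with earlier results of these data known. The alternatives were pseudocounts of 0.1 and 5, no filter, a mean of at least 5 FPKM, 4 other scalings (same sum, same sum without salivary gland genes, median ratio, quantile) and a threshold of 1.

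Depth was estimated from steps of FPKM values in genes with a single GENCODE vM21 transcript, of which 331 to 384 a library were fitted at an assumed fragment length of 250 bases; lengths of 150 to 300 bases gave 15.6 to 18.8 fragments for 1 FPKM on 1 kilobase. Fragments of single genes were computed with the longest coding transcript. Python 3.11.15, numpy 2.4.6, pandas 2.3.3 and matplotlib 3.10.9 were used.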

Additional observations from a re-analysis of the deposited data

How the results depend on the processing

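The counts and medians of the defense genes and of the other lists were recomputed under 9 alternatives. The counts of defense genes higher and lower stayed within 1.5 times the reported ones except with a threshold of 1, which by its construction counts fewer genes: 1 higher and 0 lower with 6-OHDA, and 0 higher and 1 lower with SP. The medians of the 6-OHDA and SP comparisons stayed within 0.1 of the reported values. Between the controls the median of 0.65 moved to 0.47 with the libraries rescaled to the same sum, with or without the salivary gland genes, to 0.41 with quantile normalization and to 0.14 with median ratio scaling, as the scale of all genes moved. Relative to the median of all genes it was 0.20 as deposited and from 0.15 with a pseudocount of 0.1 to 0.53 with no filter. Single genes past 0.3 changed direction only between the controls with median ratio scaling: Gclm at -0.18, Gsr at -0.15 and Prdx6 at -0.12. These values lie close to 0, and the cause was not tested. With that scaling another 3 genes there, Prdx4, Sod1 and Fth1, came within 0.3, as did Sqstm1, Mgst1 and Gpx4 with SP. The counts of the other lists were less stable. With 6-OHDA the other thioredoxin, glutathione and NADPH genes went from 11 higher (26.8%) to 6 (14.6%) with a pseudocount of 5. The share of all genes went from 15.8% to 6.84% there. With SP the NRF2 partners went from 3 lower to 1 and the luminal markers from 5 lower to 3 with median ratio scaling. The share of all genes lower went from 19.8% to 14.9% there.

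The main limits are 1 library a group, the lack of read counts, the unequal scale of sorted cells and colonies, and the presence of other cell types. Low values, such as Sod3 in SP colonies and Gpx2 and Gsta4 in sorted cells, rest on few fragments.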

Other observations

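Of 18 genes that make reactive oxygen, 9 met the filter in each treatment and 10 between the controls. With SP 4 of 9 (44.4%, beside 11.7% of all genes) were higher and 2 (22.2%, beside 19.8%) lower, with a median of -0.12 beside -0.07 for all genes. Duoxa1, the maturation factor of a hydrogen peroxide forming oxidase, was listed at 0.35 FPKM in control and 0.36 FPKM in 6-OHDA sorted cells, and 10.4 FPKM in control and 37.0 FPKM in SP colonies, a difference with SP of 1.74. Its oxidase Duox1 followed, at 1.08 FPKM in control and 4.66 FPKM in SP colonies (1.44). Nox4, an oxidase that also forms hydrogen peroxide, went the other way with SP, with a difference of -1.12. It stood at 14.3 FPKM in control and 13.8 FPKM in 6-OHDA sorted cells, and 16.3 FPKM in control and 6.91 FPKM in SP colonies. Ero1b, which oxidizes disulfides in the endoplasmic reticulum, was at -0.59 with SP. Its more abundant paralog Ero1a, named after its values were seen, was higher, at 25.7 FPKM in control and 48.5 FPKM in SP colonies (0.89). Between the controls, where 55.7% of all genes were higher and 26.6% lower, 2 of 10 were higher, Duoxa1 (3.07) and Noxo1 (2.68), and 5 were lower, among them Maob (-2.27), with a median of -0.09. With 6-OHDA 2 (22.2%, beside 15.8% of all genes) were higher, Ero1a (0.43) and Maob (0.33). With median ratio scaling, quantile normalization or a pseudocount of 5 only 1 gene was higher. Another 2 (22.2%, beside 8.35%) were lower, among them Cyba (-0.39), and the median was -0.04.

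Iron, heme and lipid peroxide genes bordered on the defense genes. All 18 iron and heme genes met the filter. With SP Tfrc, the transferrin receptor, was listed at 47.6 FPKM in control and 75.9 FPKM in SP colonies (0.66), higher where both ferritin chains were lower, and Cpox was at 0.35; Cp, ceruloplasmin, was listed at 219 and 115 FPKM (-0.93), and Hfe was at -0.69. In all, 2 (11.1%) were higher and 5 (27.8%) lower with SP, beside 11.7% and 19.8% of all genes, with a median of -0.10. Between the controls 12 (66.7%) were higher and 3 (16.7%) lower, with a median of 0.90 beside 0.45 for all genes; with median ratio scaling 10 were higher and 5 lower. The heme synthesis gene Alad was higher in control colonies by 2.41, where Hmox1 was low. Alas1, a heme synthesis gene named after its values were seen, was lower there, at -1.11. The heme exporter Flvcr1 (-1.98) and Ncoa4 (-1.15), which delivers ferritin to autophagy, were lowest. With 6-OHDA Fech (0.32) and Slc40a1 (-0.32) lay just past the threshold, 5.56% each way, beside 15.8% higher and 8.35% lower of all genes. The median was -0.01. No gene was higher with same-sum, median ratio or quantile scaling, and none passed with a pseudocount of 5. Of 11 lipid peroxidation and ferroptosis genes past the filter, 5 (45.5%) were higher and 0 lower with SP, beside 11.7% and 19.8% of all genes, led by Alox12 (1.42) and Ptgs2 (0.81), with a median of 0.12. Between the controls 6 (54.5%, beside 55.7% of all genes) were higher, with Scd1 (2.73) and Dhodh (1.27) in front. Another 4 (36.4%, beside 26.6%) were lower, with Gch1 (-2.47) and Aifm2 (-1.03) lowest. The median was 0.47, near the 0.45 of all genes. With median ratio scaling 4 were higher and 5 lower, with a median of -0.03. With 6-OHDA only Gch1 passed the threshold, at -0.35 (9.09% lower, beside 8.35% of all genes). None was higher, beside 15.8% of all genes, and the median was -0.01.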
